A study of Mus musculus with 9 samples.

Results

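Accessibility was examined at 40 genes of the cell cycle and of DNA replication in D2A1-d cells, a murine breast carcinoma line that carried hairpins against Med4 or a control. The genes were taken as a fixed list: 9 of origin licensing and the replication fork, 4 of nucleotide supply, 5 of G1/S kinase control, 5 transcription factors, 9 of mitotic entry and 8 of the checkpoint, chromosomes and spindle. A peak was given to a gene when its centre lay within the gene body, on the mm10 (GRCm38) assembly, or within 5 kb of either end. This gave 221 of the 146734 peaks of the series to 39 genes, and no peak to Rrm2. The highest peak within 1 kb of the annotated start is called the start peak, and 39 genes had one. For 6 genes (Ccna2, Ccne2, Foxm1, Aurkb, Mcm4 and Cdc25c) the strand was not at hand and either end could serve as the start. Over all 21631 protein-coding genes, 12122 had such a peak, and they shared 11065 distinct start peaks. The list holds 7 genes of chromosome 2 (Bub1b, Bub1, Cdc25b, Pcna, E2f1, Mybl2 and Aurka), which are given apart where it matters.

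There were 3 groups of 3 libraries, each of transduced cells: NTC, the non-targeting control, and shMed4 #1 and shMed4 #4, with different hairpins against Med4. The labels give them as untreated breast cells and number them as biological replicates, and do not say whether the cells of a group were pools or clones. Med4 encodes a subunit of Mediator, which passes signals from transcription factors to RNA polymerase II, and the title of the series links it to metastatic dormancy, a state in which disseminated cells do not proliferate. In ATAC-seq a transposase cuts accessible DNA, so that the read count of a peak rises with the openness of that site. Values are reads per peak divided by the library's size factor, called normalised reads below.

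Cells commit to division when cyclin D and cyclin E kinases release E2F factors from pocket proteins, and E2F factors then activate genes of licensing, nucleotide supply and replication. Genes of mitosis are activated later, by B-Myb and FoxM1 together with the MuvB complex, which binds the cell cycle homology region (CHR) of their promoters. In resting cells pocket proteins and MuvB bind many of these promoters and keep the genes repressed.

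Reads in peaks came to 44.8 to 98.9 M per library, and the median peak held 110 to 247 of them. The shallowest was shMed4 #4 replicate 3. The labels do not say that replicates came from separate transductions, so p-values reflect the spread among the libraries alone, part of which may be technical. The start peak of Med4 itself held 558.5, 557.6 and 516 normalised reads in NTC, 424, 467 and 462 with hairpin #1 and 455.0, 459 and 494 with hairpin #4. Hairpins act on RNA, so this fall (log2 fold -0.24) does not check the labels. Of 5 epithelial markers, Krt18 had a start peak and Krt8, Krt19, Epcam and Cdh1 had none, so the labelled carcinoma type was only partly visible at these markers. The Krt18 peak rose, with 164 ± 5.6 normalised reads in NTC, 368 ± 18.1 with hairpin #1 and 465 ± 39.1 with hairpin #4 (mean ± SD, n = 3 in each group, here and below). Markers of fibroblasts (Pdgfra, Dcn, Lum), the endothelial marker Pecam1 and the blood markers Ptprc and Cd3e had no start peak. The start peaks of the endothelial gene Cdh5 (log2 fold 0.55) and the macrophage gene Cd68 (log2 fold -0.37) changed, that of the mesenchymal gene Fn1 did not pass the test, and Vim fell (log2 fold -0.43). The part of such shifts in the results below was not tested.

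RefSeq promoter windows (GRCm38.p6, 250 bases before to 50 after a start) were at hand for 34 of the 40 genes, and were searched for elements that cell cycle factors are known to bind. Both strands were searched for the letters of known elements, namely the E2F-type letters TTTNNCGC, the CHR letters TTTGAA or TTCGAA, and the NF-Y letters CCAAT. A gene counted when any of its windows held the letters, and Mcm7 and E2f3 each have a further window. The E2F-type letters were found in 56.2% of the 16 replication, nucleotide supply and G1/S genes, against 10.0% of the 9611 genes with a start peak and a window. CHR letters were found in 78.6% of the 14 mitotic genes, against 16.2%, and CCAAT in 92.9% of them, against 43.4%. The Sp1-type letters GGGCGG were found in 85.3% of all 34 genes, against 68.2%, and TATAAA in 0 of 34, against 9.08%. Among the genes whose start peak fell (see the counts given next), 7 of 20 held CHR letters, 5 the E2F-type letters and 12 CCAAT, and among those not called 8, 6 and 12 of 13. These shares are descriptions, without a test.

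The sequences shown are those of the gene of each role group with the lowest p at its start peak, followed by the first gene of the same group whose start peak was not called. They show which elements lie before the start in called and in uncalled genes. Only bases before the start that lie in no annotated gene are printed, 5′ to 3′ on the gene's strand, from RefSeq GRCm38.p6. Capitals mark the E2F-type, CHR and CCAAT letters on either strand, and no matches of different elements overlap in these stretches. Genes with no such stretch of 100 bases, or whose window missed the start peak, gave way to the next. The transcription factors have no called gene that could be shown.
Pcna, chr2:132253181-132253337, minus strand: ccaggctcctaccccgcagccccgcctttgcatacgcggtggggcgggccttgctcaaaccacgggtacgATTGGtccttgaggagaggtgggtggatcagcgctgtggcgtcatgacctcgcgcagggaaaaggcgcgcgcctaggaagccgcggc
Mcm2, chr6:88898781-88899030, minus strand: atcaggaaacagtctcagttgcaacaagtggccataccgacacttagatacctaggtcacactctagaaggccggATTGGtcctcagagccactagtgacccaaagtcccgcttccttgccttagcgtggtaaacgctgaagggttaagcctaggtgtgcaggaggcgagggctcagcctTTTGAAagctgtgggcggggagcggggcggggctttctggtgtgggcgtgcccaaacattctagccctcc
Tyms, chr5:30073646-30073875, minus strand: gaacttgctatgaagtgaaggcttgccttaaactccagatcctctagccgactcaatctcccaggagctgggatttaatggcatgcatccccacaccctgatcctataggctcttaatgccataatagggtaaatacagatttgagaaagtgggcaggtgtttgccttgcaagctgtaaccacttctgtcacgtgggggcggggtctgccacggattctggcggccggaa
Rrm1, chr7:102441445-102441694, plus strand: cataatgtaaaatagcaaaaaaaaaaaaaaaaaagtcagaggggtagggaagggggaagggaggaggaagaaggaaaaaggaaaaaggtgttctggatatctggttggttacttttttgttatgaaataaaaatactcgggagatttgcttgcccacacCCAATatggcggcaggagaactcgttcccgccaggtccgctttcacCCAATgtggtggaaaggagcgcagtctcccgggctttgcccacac
Cdk4, chr10:127063285-127063534, plus strand: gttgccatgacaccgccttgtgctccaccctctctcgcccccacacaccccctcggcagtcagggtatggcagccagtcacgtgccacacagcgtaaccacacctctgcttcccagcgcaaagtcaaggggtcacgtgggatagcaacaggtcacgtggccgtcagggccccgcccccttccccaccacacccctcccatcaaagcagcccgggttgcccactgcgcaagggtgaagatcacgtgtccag
Cdc25a, chr9:109875329-109875517, plus strand: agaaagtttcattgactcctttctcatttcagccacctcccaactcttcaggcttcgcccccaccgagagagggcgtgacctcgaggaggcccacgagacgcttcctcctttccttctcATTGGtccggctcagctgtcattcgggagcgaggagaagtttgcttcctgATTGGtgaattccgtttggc
E2f3, chr13:29986065-29986313, minus strand: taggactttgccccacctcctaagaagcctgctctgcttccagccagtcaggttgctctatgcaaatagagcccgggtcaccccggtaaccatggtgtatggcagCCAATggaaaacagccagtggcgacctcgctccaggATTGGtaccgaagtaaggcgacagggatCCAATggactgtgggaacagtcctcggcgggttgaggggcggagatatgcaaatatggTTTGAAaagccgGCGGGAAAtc
Cdk1, chr10:69352913-69353162, minus strand: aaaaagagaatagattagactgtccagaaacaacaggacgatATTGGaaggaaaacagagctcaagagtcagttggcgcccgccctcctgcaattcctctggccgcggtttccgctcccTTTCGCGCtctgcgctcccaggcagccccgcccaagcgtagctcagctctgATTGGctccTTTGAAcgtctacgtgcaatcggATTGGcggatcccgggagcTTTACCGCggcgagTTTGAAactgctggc
Ccnb2, chr9:70421555-70421804, minus strand: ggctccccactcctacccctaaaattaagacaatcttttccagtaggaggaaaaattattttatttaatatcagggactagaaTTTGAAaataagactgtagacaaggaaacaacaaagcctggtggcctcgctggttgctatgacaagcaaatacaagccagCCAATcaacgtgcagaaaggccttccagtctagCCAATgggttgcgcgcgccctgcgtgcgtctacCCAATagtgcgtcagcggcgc
Bub1, chr2:127831860-127832109, minus strand: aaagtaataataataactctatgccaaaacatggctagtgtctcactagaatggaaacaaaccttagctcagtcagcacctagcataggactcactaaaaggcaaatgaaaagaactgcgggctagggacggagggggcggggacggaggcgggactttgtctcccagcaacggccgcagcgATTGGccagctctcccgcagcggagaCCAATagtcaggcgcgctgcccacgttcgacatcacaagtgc
Mki67, chr7:135716451-135716629, minus strand: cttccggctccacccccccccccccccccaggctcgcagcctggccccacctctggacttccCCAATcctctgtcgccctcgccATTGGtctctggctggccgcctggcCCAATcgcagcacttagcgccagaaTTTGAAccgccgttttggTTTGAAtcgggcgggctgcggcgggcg
Cdk1 carries all 3 kinds of element, with 2 E2F-type, 2 CHR and 3 CCAAT matches in the printed bases. Mki67 and Ccnb2 carry CHR and CCAAT matches, E2f3 all 3 kinds, and Cdk4 and Tyms none of them in the bases printed.

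The start peaks of these genes were slightly less open with the hairpins. Of 39, 26 fell and 0 rose when both hairpins together were set against NTC (limma on log2 of the normalised value plus 1, Benjamini-Hochberg over all 146729 peaks tested, adjusted p under 0.05). By the same rule 44.9% of all start peaks fell and 10.7% rose, so falls were common at gene starts at large and 66.7% of these genes fell. The median log2 fold was -0.17, against -0.11 for all start peaks. Below, a log2 fold or p-value with no other comparison named is of both hairpins against NTC. No start peak changed by as much as 2-fold, and the largest change was a log2 fold of -0.42 at Aurka. In 18 genes all 6 hairpin libraries lay below all 3 NTC libraries, as they did at 27.6% of all start peaks. The result leans on the scaling: with libraries centred on gene start peaks, 15 fell and 4 rose, against 20.8% and 20.1% of all start peaks. That centring moves the median of all peaks from -0.02 to 0.09. At the 32 genes off chromosome 2, 19 (59.4%) fell, with a median of -0.13, against 41.6% and -0.10 for all start peaks off that chromosome. The plot of log2 folds by gene shows both hairpins for each role group.

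**Figure D1:**
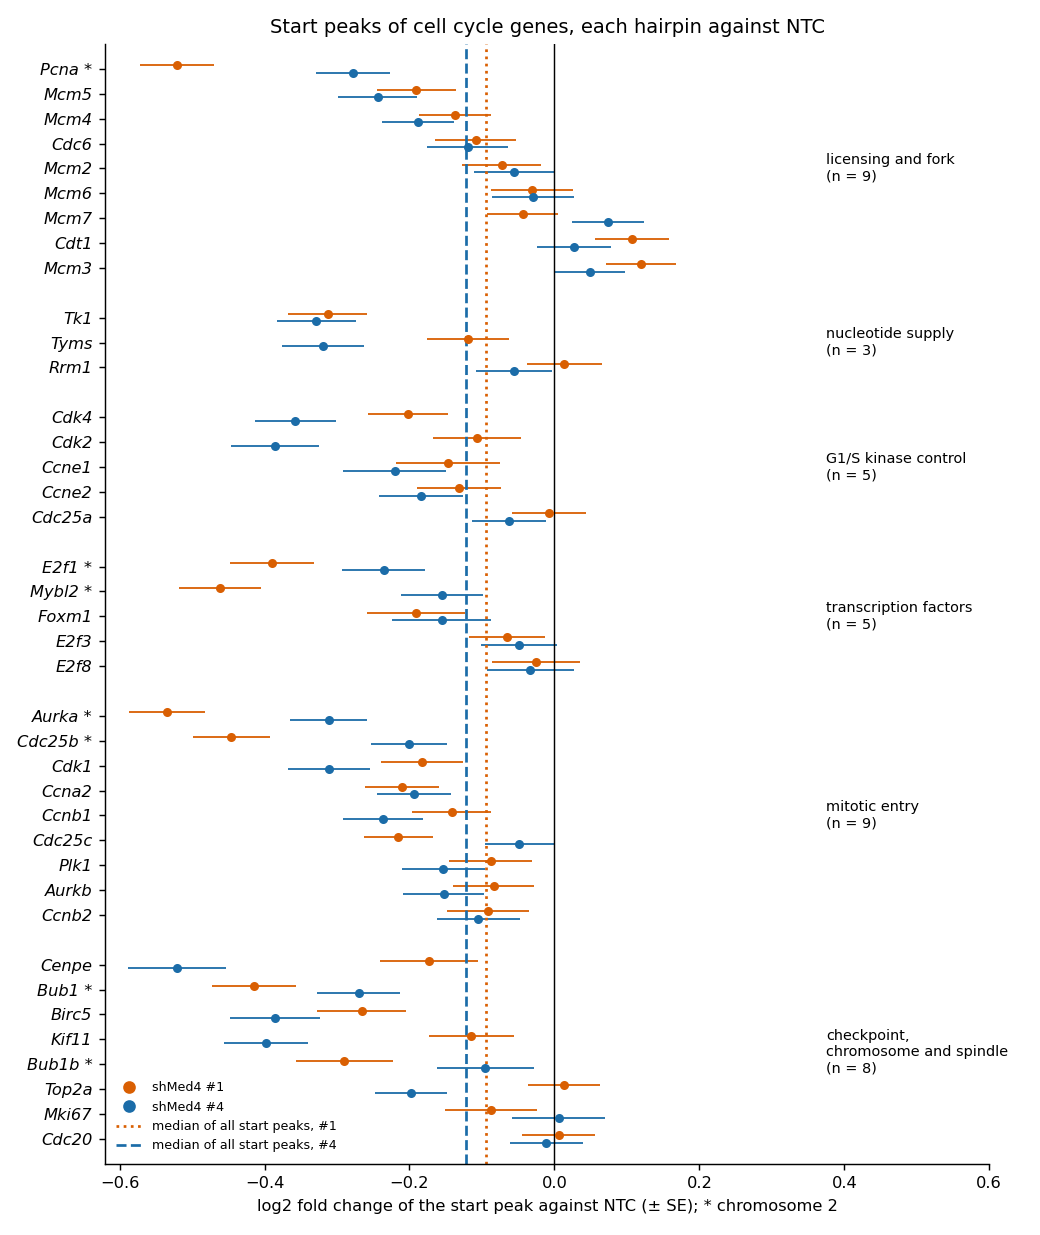
Log2 fold change of each gene's start peak against NTC (x axis, points with standard error) for hairpins #1 and #4, with genes in role groups on the y axis and chromosome 2 marked by an asterisk. Points lie mostly left of 0, close to the dotted and dashed medians of all start peaks, and the genes of chromosome 2 reach the lowest values with hairpin #1, down to -0.53 at Aurka.

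Start peaks of these genes were high before any change. In NTC they held 693.8 to 5610 normalised reads with a median of 2012, against a median of 1243 for all start peaks, and 34 of 39 were above that median. Ccna2, the cyclin of S phase and mitotic entry, was highest and Bub1b, a checkpoint kinase, lowest. Peaks are of equal width, so width does not set these levels apart. Values are scaled only by library, so other differences between loci were not corrected, and a start peak can also serve a neighbour. Mcm4 shares its start peak with Prkdc, Mcm7 with Ap4m1, Aurka with Cstf1, Tk1 with Afmid and Foxm1 with Rhno1, and that of Cdk2 lies inside Pmel.

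Among the transcription factors, 3 of 5 start peaks fell, against 44.9% of all start peaks. E2f1, the activator E2F released by pocket proteins, had its start peak 649 bases upstream of the start (chr2:154569825-154570326). It held 3985, 4191 and 4294 normalised reads in NTC, 3021, 3066 and 3442 with hairpin #1, and 3136, 3614 and 3875 with hairpin #4. All 6 hairpin libraries lay below NTC (log2 fold -0.31, SE 0.05, limma adjusted p = 1.7e-06). Mybl2, which encodes B-Myb (start peak chr2:163054350-163054851), held 3025, 3136 and 3326 in NTC, 2243, 2187 and 2462 with hairpin #1 and 2554, 2952 and 3032 with hairpin #4. Hairpin #1 lay clear of NTC and hairpin #4 overlapped it by its highest library (log2 fold -0.31, SE 0.05, limma adjusted p = 1.6e-06). E2f1 and Mybl2 both lie on chromosome 2. Foxm1, the mitotic forkhead factor, fell by 0.17 on the log2 scale, and this call was lost without NTC replicate 1, NTC replicate 3 or shMed4 #1 replicate 1 (largest limma adjusted p = 0.093). E2f3, another activator (log2 fold -0.06), and E2f8, an atypical repressor (-0.03), were not called at their starts.

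Among the G1/S kinase genes 4 of 5 start peaks fell, against 44.9% of all start peaks. Cdk4, the partner of D cyclins (start peak chr10:127063253-127063754), held 1884, 2050 and 2102 normalised reads in NTC, 1689, 1716 and 1839 with hairpin #1 and 1458, 1632 and 1621 with hairpin #4. The groups did not overlap, and both hairpins lay below NTC (log2 fold over both -0.28, SE 0.05, limma adjusted p = 6.6e-06). Hairpin #4 was the lowest, with a log2 difference from hairpin #1 of -0.16 (limma adjusted p = 0.023). That call was lost without either of 2 libraries, as given below. Cdk2, the partner of cyclin E (start peak chr10:128704865-128705366), held 1237, 1296 and 1308 in NTC, 1075, 1237 and 1263 with hairpin #1 and 943, 1013 and 984 with hairpin #4. Only hairpin #4 lay clear of NTC (log2 fold over both -0.25, SE 0.05, limma adjusted p = 0.00015). The E cyclin genes Ccne1 and Ccne2 fell by 0.18 and 0.16 on the log2 scale. Both calls were lost without NTC replicate 3 (limma adjusted p = 0.2 and 0.077). Cdc25a, the phosphatase that activates Cdk2, was not called (log2 fold -0.04).

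Of the 9 licensing genes 4 had a lower start peak, a share of 44.4% that is near the 44.9% of all start peaks, with a median log2 fold of -0.06. Pcna, the sliding clamp of the fork (start peak chr2:132253016-132253517), held 3840, 4000 and 4115 normalised reads in NTC, 2685, 2676 and 2978 with hairpin #1 and 3064, 3477 and 3325 with hairpin #4. The 3 groups were apart, in the order NTC, #4, #1 (log2 fold -0.40, SE 0.04, limma adjusted p = 1.1e-09). Mcm5, a subunit of the replicative helicase (start peak chr8:75109237-75109738), held 3651, 3812 and 3747 in NTC, 3133, 3194 and 3503 with hairpin #1 and 2842, 3205 and 3448 with hairpin #4. Its hairpin groups overlapped each other and lay below NTC (log2 fold -0.22, SE 0.05, limma adjusted p = 0.00018). Of the other helicase subunits Mcm4 fell (-0.16), and Mcm2 (-0.06), Mcm6 (-0.03), Mcm7 (0.01) and Mcm3 (0.08) were not called. The loader genes Cdc6 and Cdt1 differed, with Cdc6 lower (-0.11, limma adjusted p = 0.045) and Cdt1 at 0.07 without a call. The Cdc6 call was lost when any 1 of 6 libraries was left out: each NTC library, shMed4 #1 replicates 2 and 3, and shMed4 #4 replicate 1 (largest limma adjusted p = 0.23). Without shMed4 #4 replicate 1, Mcm3 and Cdt1 were called higher (limma adjusted p = 0.025 and 0.017).

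Of the 3 nucleotide supply genes with a start peak, 2 fell, against 44.9% of all start peaks. Tk1, the thymidine kinase of the salvage pathway (start peak chr11:117825691-117826192), held 1610, 1581 and 1484 normalised reads in NTC, 1292, 1214 and 1258 with hairpin #1 and 1200, 1262 and 1259 with hairpin #4. The hairpins overlapped each other and lay below NTC (log2 fold -0.32, SE 0.05, limma adjusted p = 4e-07). Tyms, the thymidylate synthase (start peak chr5:30073366-30073867), held 1279, 1361 and 1295 in NTC, 1158, 1212 and 1253 with hairpin #1 and 1027, 1105 and 1023 with hairpin #4. Hairpin #4 was the lowest group and hairpin #1 lay between (log2 fold -0.22, SE 0.05, limma adjusted p = 0.00026). Rrm1, the large subunit of ribonucleotide reductase, was not called (-0.02), and Rrm2, the small subunit, had no peak.

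Of the 9 genes of mitotic entry 8 had a lower start peak, against 44.9% of all start peaks, with a median log2 fold of -0.19. For 3 of these 8 the call was lost when 1 library was left out, as given below. Aurka, the spindle pole kinase (start peak chr2:172370345-172370846), held 2920, 2633 and 2715 normalised reads in NTC, 1947, 1780 and 1981 with hairpin #1 and 2162, 2169 and 2328 with hairpin #4. The groups were apart in the same order as at Pcna (log2 fold -0.42, SE 0.05, limma adjusted p = 5.5e-10). Cdc25b, a phosphatase that activates Cdk1 (start peak chr2:131186624-131187125), held 2955, 2969 and 3057 in NTC, 2166, 2158 and 2271 with hairpin #1 and 2362, 2814 and 2660 with hairpin #4. Again hairpin #1 was lowest and hairpin #4 lay between (log2 fold -0.32, SE 0.05, limma adjusted p = 1.9e-07). Both genes lie on chromosome 2. Cdk1, the kinase of mitosis, fell by 0.25, and its cyclin genes Ccna2 and Ccnb1 fell by 0.20 and 0.19 on the log2 scale. Ccnb2, the other B cyclin, was not called (log2 fold -0.10), and was called without NTC replicate 2 or without shMed4 #4 replicate 3 (smallest limma adjusted p = 0.038). Cdc25c, a further Cdk1 phosphatase, fell by 0.13, a call lost without NTC replicate 2 (limma adjusted p = 0.072). The mitotic kinase genes Plk1 and Aurkb fell by 0.12 each. Their calls were lost when any 1 of 5 (Plk1) or 6 (Aurkb) libraries was left out: NTC replicates 1 and 3, shMed4 #1 replicates 1 and 2, shMed4 #4 replicate 1, and for Aurkb also NTC replicate 2 (largest limma adjusted p = 0.28 and 0.11).

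Of the 8 genes of the checkpoint, chromosomes and spindle 5 fell, against 44.9% of all start peaks. Bub1, a checkpoint kinase of the kinetochore (start peak chr2:127831662-127832163), held 1135, 1211 and 1253 normalised reads in NTC, 889.9, 887 and 919.8 with hairpin #1 and 973, 985 and 1023 with hairpin #4. All 3 groups were apart (log2 fold -0.34, SE 0.05, limma adjusted p = 3.7e-07). Birc5, the survivin subunit of the chromosomal passenger complex (start peak chr11:117848857-117849358), held 1818, 2017 and 1962 in NTC, 1604, 1550 and 1664 with hairpin #1 and 1348, 1422 and 1683 with hairpin #4. The hairpins overlapped each other below NTC (log2 fold -0.33, SE 0.05, limma adjusted p = 2.8e-06). Cenpe and Kif11, kinesins of the kinetochore and of the bipolar spindle, fell by 0.35 and 0.26 on the log2 scale, and Bub1b by 0.19. Top2a, the decatenating topoisomerase (log2 fold -0.09), Mki67, which encodes the proliferation marker Ki-67 (-0.04), and Cdc20, an activator of the anaphase-promoting complex (-0.003), were not called. Centred on gene start peaks, Cdc20 turned to 0.10 and was called higher. Top2a was called lower without shMed4 #4 replicate 3 (limma adjusted p = 0.036).

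**Figure D2:**
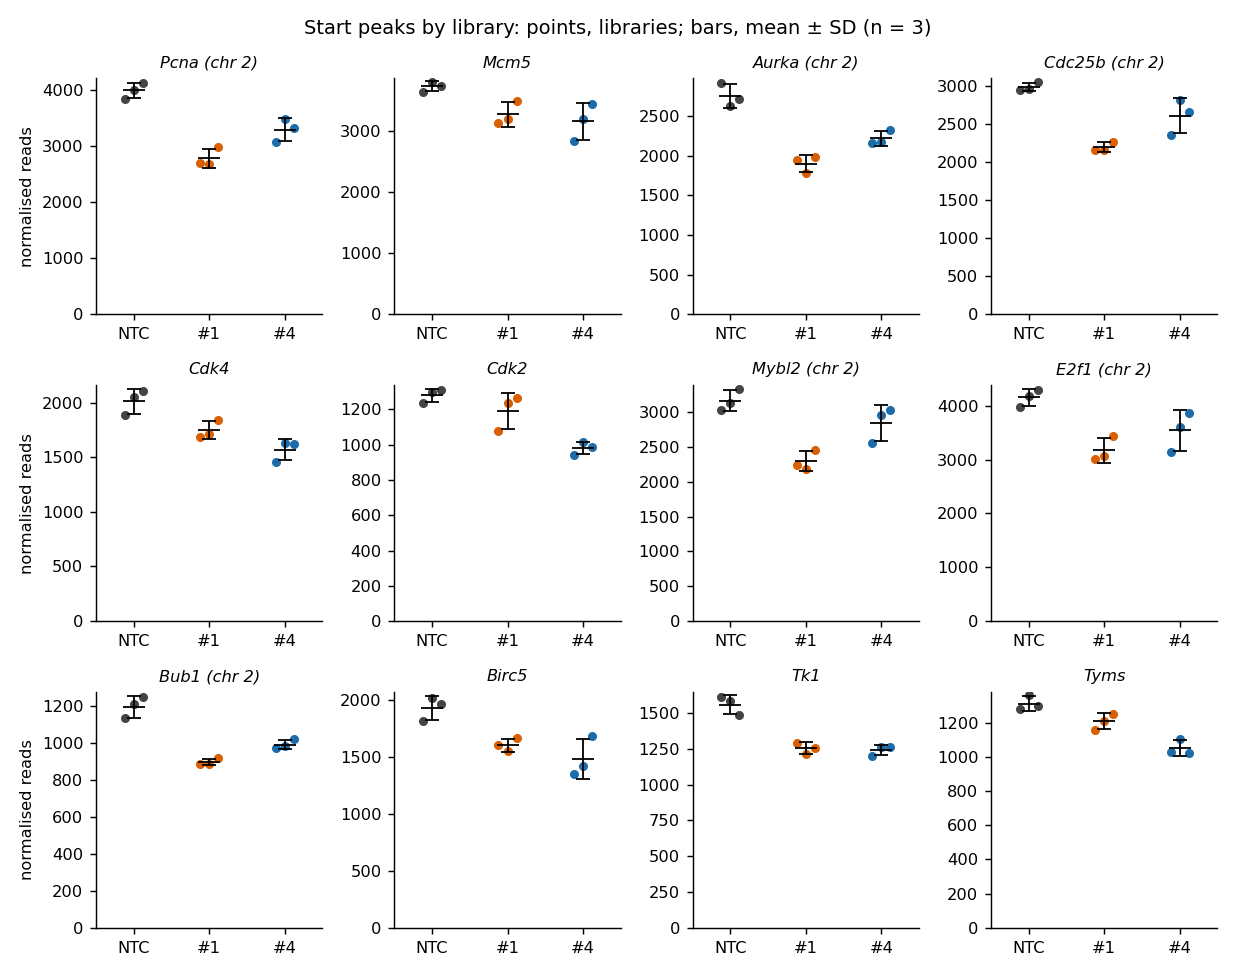
Normalised reads (y axis, from 0) at the start peaks of the 12 genes given by library, for NTC, hairpin #1 and hairpin #4, with 1 point per library and bars for mean ± SD of 3 libraries. Aurka, Pcna, Cdc25b and Bub1 of chromosome 2 are lowest with hairpin #1, and Cdk4, Cdk2 and Tyms are lowest with hairpin #4.

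The hairpins were also compared separately. With hairpin #1, 18 start peaks fell and 1 rose (Mcm3, log2 fold 0.12), against 36.5% and 10.2% of all start peaks. With hairpin #4, 23 fell and 0 rose, against 43.5% and 10.4%. Off chromosome 2, 11 of 32 (34.4%) fell with hairpin #1, near the 32.2% of all start peaks there. With hairpin #4, 17 of these 32 (53.1%) fell, against 41.6%. The rise at Mcm3 was lost without NTC replicate 2 or 3 and without shMed4 #1 replicate 1 or 3, where 0 start peaks were called higher. Both comparisons use the same NTC libraries. Set directly against hairpin #1, hairpin #4 had 8 higher and 6 lower start peaks, against 14.2% and 15.9%. All 7 genes of chromosome 2 were among the 8 and so were lower with hairpin #1, and the other was Cdc25c. On chromosome 2 at large, 52.0% of 865 start peaks were higher with hairpin #4, with a median log2 difference of 0.165. The 6 that were lower with hairpin #4 were Cenpe, Cdk2, Kif11, Top2a, Tyms and Cdk4. The largest was a log2 difference of -0.35 at Cenpe, which held 835 ± 52.9 normalised reads in NTC, 740 ± 29.1 with hairpin #1 and 582 ± 35.9 with hairpin #4. Kif11 held 1691 ± 55.4 in NTC, 1562 ± 63.9 with hairpin #1 and 1286 ± 115 with hairpin #4, and the 3 groups did not overlap. Top2a held 1828 ± 21.4, 1845 ± 29.6 and 1594 ± 45.3 in the same order, so that only hairpin #4 lay below NTC. Cdc25c went the other way, with 4278 ± 125 in NTC, 3684 ± 28.4 with hairpin #1 and 4142 ± 279 with hairpin #4. Several of these calls were lost when 1 library was left out. The call was lost at Bub1b without shMed4 #4 replicate 3, and at Cdk4 without shMed4 #1 replicate 3 or shMed4 #4 replicate 1 (limma adjusted p = 0.12 and up to 0.13). It was lost at E2f1 without any 1 of shMed4 #1 replicates 1 and 2 and shMed4 #4 replicates 2 and 3 (limma adjusted p up to 0.23). At Bub1 it was lost without any 1 of those same 4 libraries, NTC replicate 2 or NTC replicate 3 (up to 0.12).

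Changes at the starts lay close to those of the chromosome around them. Each gene was set beside the other start peaks within 5 Mb, of which there were 16 to 193. The median of the gene's log2 fold minus that of its surroundings was -0.01 over 39 genes, with a range from -0.14 at Birc5 to 0.10 at Cdc20, and 23 genes lay below their surroundings and 15 above. The 7 genes of chromosome 2 had a median log2 fold of -0.32, and their surroundings had the same, -0.32. Of all 865 start peaks of chromosome 2, 84.5% fell, with a median of -0.30, against 41.6% and -0.10 off that chromosome. With hairpin #1 the surroundings of these 7 genes were at -0.43 and with hairpin #4 at -0.205, beside medians of -0.45 and -0.24 at the genes themselves. Birc5 and Tk1, neighbours on chromosome 11, were at -0.14 relative to surroundings of -0.18, and Cdk4, Ccne1 and Mcm5 at -0.13, -0.13 and -0.12 relative to theirs. With surroundings of 2 Mb the median distance was -0.02, but Mcm3 stood at -1.13 relative to start peaks that had risen, so its place depends on the span. With the median of all peaks in each 10 Mb window removed, 25 start peaks fell, against 41.4% of all start peaks, with 24 of the 39 calls as before, and 0 were higher with hairpin #4 than with #1. No test was made of these distances.

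**Figure D3:**
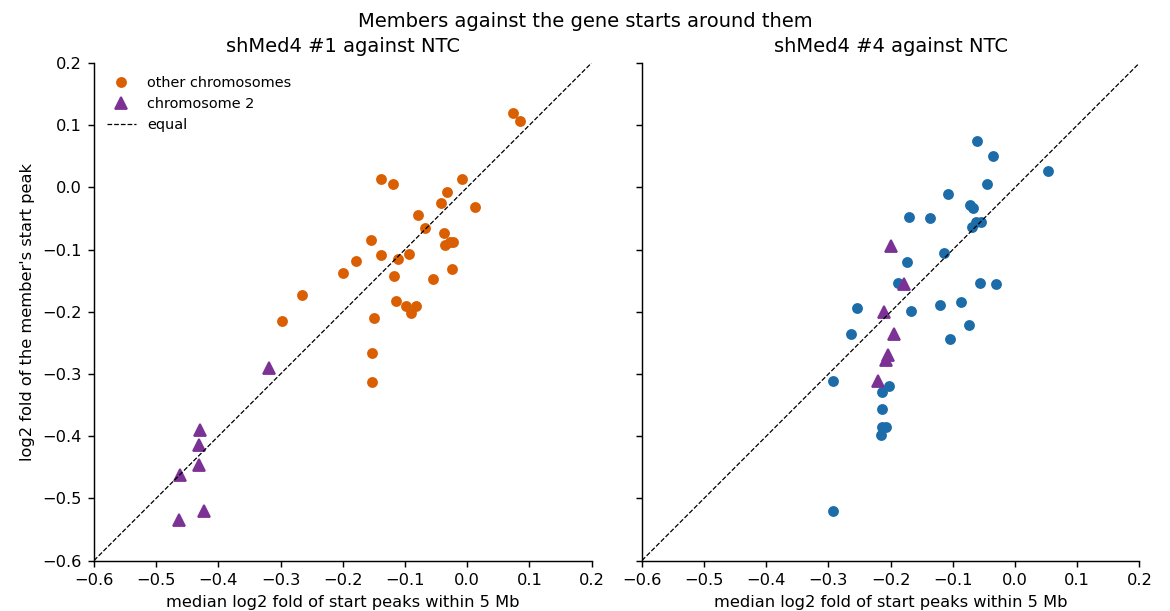
Log2 fold of each gene's start peak (y axis) against the median log2 fold of the other start peaks within 5 Mb (x axis), for hairpin #1 (left) and hairpin #4 (right), with 1 point per gene and the dashed line where both are equal. Points lie along the line, and the triangles of chromosome 2 move from about -0.43 on the x axis with hairpin #1 to about -0.205 with hairpin #4.

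Peaks away from the starts fell more often than those of other genes. Of the 182 peaks other than start peaks, 94 (51.6%) fell and 16 (8.79%) rose, against 26.2% and 27.9% of all tested peaks. Their median log2 fold was -0.27, against -0.02 for all tested peaks. With the 39 start peaks counted in, 120 of 221 fell and 16 rose, with a median of -0.25. Inside the gene bodies, 52 of 92 peaks (56.5%) fell and 6 (6.52%) rose, with a median of -0.35. Of the 68339 peaks inside any protein-coding gene and away from starts, 25.4% fell and 29.2% rose, with a median of -0.01. Inside peaks were then compared in further ways, chosen after the values were seen. Inside genes with start peaks at least as high as the lowest of this list, 29.2% of 37651 peaks fell and 25.9% rose. Off chromosome 2, 39 of 73 inside peaks fell, with a median of -0.28. No share of all inside peaks off that chromosome is given, and the 25.4% above includes chromosome 2. Beyond 5 kb of any start 41 of 70 fell, against 24.8% of all such inside peaks, and nearer to a start 11 of 22, against 29.0%. With the median of each 10 Mb window removed 42 fell and 7 rose, against 22.7% and 28.2%. With libraries centred on gene start peaks 36 fell and 11 rose, against 14.8% and 35.9%, and over all 221 peaks 73 fell and 28 rose, against 14.87% and 34.98% of all tested peaks. Peaks of 1 gene share a locus and are not independent replicates, and no test was made of the difference between the lists.

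The falls inside were spread over many genes. Of 28 genes with an inside peak, 24 (85.7%) had a median inside log2 fold below 0 and 18 (64.3%) had an inside median below their own start peak. Over the 7436 genes with a start peak and 1 to 9 inside peaks, the shares were 60.6% and 46.4%, without a test of the difference. Inside peaks were low, with a median of 149 normalised reads in NTC, near the 161 of inside peaks at large. Inside peaks of all genes fell in 25.4% and rose in 29.2%. By role, 23 of 32 fell at checkpoint, chromosome and spindle genes (median -0.49), 8 of 14 at mitotic entry genes (-0.47) and 9 of 16 at licensing genes (-0.35). At transcription factors 7 of 17 fell and 2 rose, at nucleotide supply genes 4 of 9 fell and 2 rose, and at G1/S kinase genes 1 of 4 fell and 1 rose. Cenpe had 6 of 7 inside peaks lower (median -0.73), Top2a 6 of 9 (-0.59), Mki67 3 of 4 (-0.44) and Aurka 3 of 3 (-0.86). Top2a and Mki67 thus had falls in the gene body and none called at the start with both hairpins together. At Top2a 1 inside peak rose (0.48), and the start peak was at -0.20 with hairpin #4 and 0.01 with hairpin #1. Of the 19 peaks near a start, or near either end in the genes without a strand, 13 fell and 0 rose, against 38.2% and 12.4% of such peaks of all genes with a start peak. Of the 71 in the flanks 29 fell and 10 rose, against 32.0% and 17.8%. With each hairpin alone, 108 of the 221 peaks fell and 24 rose with #1, against 24.9% and 27.9% of tested peaks, and 106 fell and 12 rose with #4, against 24.3% and 26.2%. Between the hairpins 39 were higher and 32 lower with #4, against 20.4% and 21.2%.

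**Figure D4:**
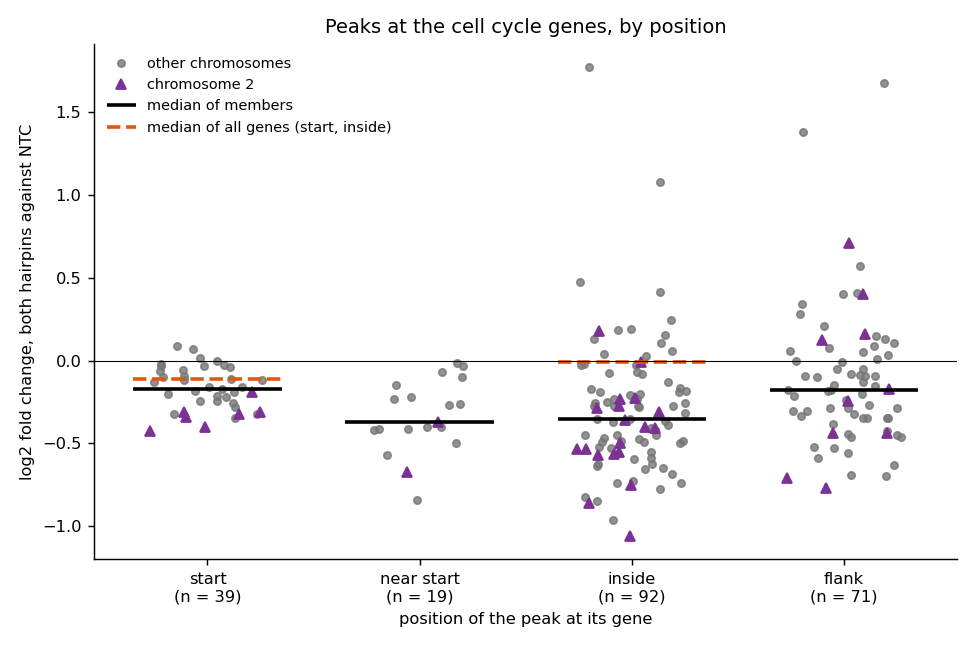
Log2 fold of both hairpins against NTC (y axis) for the 221 peaks by position (x axis), 1 point per peak, triangles for chromosome 2, with black lines for the medians of these genes and orange dashed lines for the medians of all genes at starts and inside gene bodies. Inside peaks centre on -0.35 beside -0.01 for all genes, and the highest points, above 1, are peaks of E2f3, Ccne1, Mcm3 and Tyms.

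Values by library are given for the 8 lowest and the 8 highest log2 folds among peaks that are no start peaks and average at least 50 normalised reads, with at most 2 for 1 gene. The deepest falls lay mostly inside mitotic genes. At Aurka a peak 8.3 kb into the gene (chromosome 2, 172362025 to 172362526) held 88.0, 99.6 and 78.5 normalised reads in NTC, 32.8, 34.9 and 22.0 with hairpin #1 and 70.1, 58.8 and 51.1 with hairpin #4. The groups were apart (log2 fold -1.06, SE 0.20, limma adjusted p = 3.2e-05), and this was the only one of the 221 peaks called at least 2-fold lower, as 0.96% of all tested peaks were. A second Aurka peak 9.2 kb into the gene (172361106 to 172361607) held 140.4, 172 and 156 in NTC, 104, 99.0 and 84.7 with hairpin #1 and 57.1, 111 and 68.8 with hairpin #4. Both hairpins lay below NTC and overlapped each other (-0.86, SE 0.16).

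At Cenpe the peak 59.2 kb from the start (chromosome 3, 135271543 to 135272044) held 73.5, 102.7 and 74.5 normalised reads in NTC, 38.4, 53.5 and 70.4 with hairpin #1 and 42.4, 30.7 and 28.2 with hairpin #4 (log2 fold -0.96, SE 0.21). The peak 44.5 kb from its start (135256849 to 135257350) held 92.0, 75.0 and 96.5, then 69.6, 56.0 and 55.0, then 46.7, 55.0 and 37.0 in the same order (-0.73, SE 0.19). Hairpin #4 had the lower mean at both, and at the second the 3 groups did not overlap. At Kif11 a peak 10.0 kb into the gene (chromosome 19, 37386122 to 37386623) held 146, 134 and 119 in NTC, 75.2, 69.8 and 67.1 with hairpin #1 and 81.3, 90.8 and 91.7 with hairpin #4 (-0.74, SE 0.14). Here hairpin #1 was the lowest group and no groups overlapped.

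At Top2a the peak 22.1 kb into the gene (chromosome 11, 99001885 to 99002386) held 103, 87.3 and 74.5 normalised reads in NTC, 42.4, 43.0 and 59.4 with hairpin #1 and 57.1, 55.0 and 58.2 with hairpin #4 (-0.74, SE 0.18). At Aurkb a peak 435 bases from an end of the gene (chromosome 11, 69050979 to 69051480) held 134.0, 129 and 137 in NTC, 84.8, 77.1 and 95.7 with hairpin #1 and 63.2, 51.2 and 81.1 with hairpin #4 (-0.84, SE 0.15). At Mcm3 the peak 12.5 kb into the gene (chromosome 1, 20807572 to 20808073) held 82.3, 89.3 and 87.5 in NTC, 50.4, 52.7 and 58.3 with hairpin #1 and 69.2, 30.7 and 47.6 with hairpin #4 (-0.77, SE 0.20). In each of these 3 the hairpins overlapped and all 6 libraries lay below NTC. These 8 peaks are weak, with NTC means of 83.5 to 156, so the error of a single library is a larger share of the value than at a start peak.

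A few sites opened strongly beside this general fall. Of the 221 peaks, 4 were called at least 2-fold higher, against 5.97% of all tested peaks. The highest lay inside E2f3, 22.5 kb from its start (chromosome 13, 29961597 to 29962098). It held 129, 136 and 146 normalised reads in NTC, 409.8, 433 and 402 with hairpin #1 and 561, 527 and 499 with hairpin #4. All 3 groups were apart, and hairpin #4 was highest (log2 fold 1.77, SE 0.08, limma adjusted p = 5.7e-21), a 3.41-fold rise. The E2f3 start peak itself held 2981 ± 94 in NTC, 2848 ± 67.8 with hairpin #1 and 2888 ± 256 with hairpin #4, and was not called.

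Downstream of Ccne1, 14.2 kb from its start (chromosome 7, 38093071 to 38093572), a weak peak held 55.7, 42.1 and 43.4 normalised reads in NTC, 178, 164 and 152 with hairpin #1 and 124, 187 and 116 with hairpin #4. Every hairpin library lay above every NTC library, and the hairpins overlapped each other (log2 fold 1.67, SE 0.15, limma adjusted p = 7.1e-12). The peak 4.9 kb upstream of Mcm3 (chromosome 1, 20825004 to 20825505) held 203, 209 and 174 in NTC, 711, 671 and 561 with hairpin #1 and 459, 390.1 and 363 with hairpin #4. The groups were apart, with hairpin #1 highest (1.38, SE 0.08, limma adjusted p = 9.2e-17). Mcm3 thus had a peak that rose before its start and one that fell in its body, while its start peak was not called.

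Tyms held 2 of the higher peaks. The one 33.5 kb from its start and inside the annotated gene (chromosome 5, 30039831 to 30040332) held 60.5, 47.2 and 46.6 normalised reads in NTC, 119, 107 and 83.6 with hairpin #1 and 121, 109 and 119.9 with hairpin #4. Its log2 fold was 1.08 (SE 0.16, limma adjusted p = 3.5e-07). The other, 39.5 kb away and past the gene (30033900 to 30034401), held 154, 107 and 128 in NTC, 169, 144 and 176 with hairpin #1 and 213, 228 and 233 with hairpin #4 (0.57, SE 0.11). At the first both hairpins lay above NTC, and at the second only hairpin #4 did. The Tyms start peak fell, so the gene had changes in both directions.

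The remaining high peaks were those of Bub1b, Top2a and Rrm1. Past the end of Bub1b (chromosome 2, 118642406 to 118642907) a peak held 56.5, 55.5 and 67.9 normalised reads in NTC, 133, 148 and 139 with hairpin #1 and 70.9, 80.6 and 58.2 with hairpin #4 (log2 fold 0.71, SE 0.16). Inside Top2a, 29.8 kb from its start (chromosome 11, 98994174 to 98994675), a strong peak held 933, 764 and 848 in NTC, 1509, 1355 and 1447 with hairpin #1 and 991, 875 and 1035 with hairpin #4 (0.48, SE 0.06). At both, hairpin #1 lay clear of the other groups and hairpin #4 overlapped NTC. Inside Rrm1, 2.8 kb from its start (chromosome 7, 102444242 to 102444743), a peak held 204, 243 and 193 in NTC, 324, 292 and 256 with hairpin #1 and 334, 232 and 273 with hairpin #4 (0.41, SE 0.10). Hairpin #4 overlapped NTC there by 1 library. The plot of peaks along 4 genes shows where the raised sites lie relative to the starts.

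**Figure D5:**
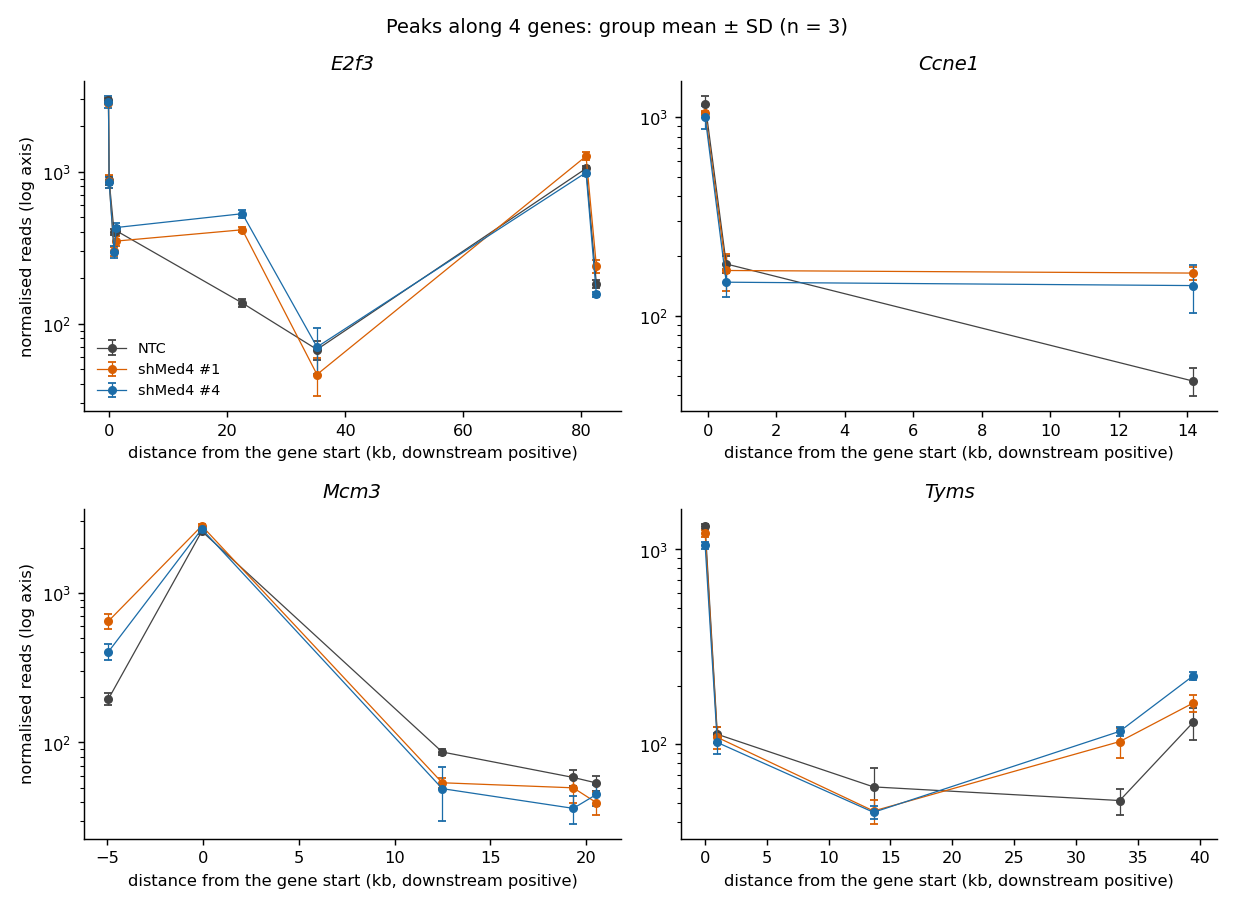
Normalised reads (y axis, log scale; mean ± SD of 3 libraries) of every peak of E2f3, Ccne1, Mcm3 and Tyms against distance from the gene start in kb (x axis), for NTC, hairpin #1 and hairpin #4, with lines joining peaks of a group. The groups lie close together at the starts and separate at 22.5 kb in E2f3, 14.2 kb in Ccne1, 4.9 kb before Mcm3 and 33.5 kb in Tyms.

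Start peaks of other genes of these pathways are to be read against the 44.9% of all start peaks that fell and their median of -0.11. Of 39 other replication genes with a start peak 18 fell and 1 rose, with a median log2 fold of -0.10, near that background. The gene that rose was Gmnn, which encodes geminin, the inhibitor of Cdt1. Its start peak held 1131 ± 40.3 normalised reads in NTC, 1694 ± 81.9 with hairpin #1 and 1545 ± 92.0 with hairpin #4. The difference on the log2 scale was 0.52 (SE 0.05, limma adjusted p = 2e-11). Gins1, a subunit of the replicative helicase (-0.44), and Orc4, of the origin recognition complex (-0.33), were the next by p, both lower and both on chromosome 2. Of 44 other mitotic genes 27 fell and 0 rose, with a median of -0.14, led by Kif18a, a kinesin (-0.42), Tpx2, the activator of Aurora A (-0.32), and Ncaph, a condensin subunit (-0.39), all on chromosome 2. Of 21 genes of G1 and pocket protein control 12 fell and 0 rose, with a median of -0.14, led by E2f5 (-0.25) and E2f4 (-0.28), E2F factors that act with pocket proteins, and Cdk6, a D cyclin kinase (-0.28), none of them on chromosome 2. The pocket protein list had 0 genes on chromosome 2, the replication list 3 and the mitotic list 6. Timeless, Kif14, Ccnd2 and Tfdp2 had no start peak.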

How the data were processed

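ATAC-seq was measured in 9 libraries, 3 per group. Per the submitters' processing notes, Trim Galore, BWA, MACS2 and featureCounts of Subread were used on mm10 (GRCm38), and versions are not given in the sources used here. The deposited table holds a signal per peak: read counts divided by a size factor per library, as the values show (100% are whole multiples of 1 read within 0.001). Peak coordinates are printed as deposited, with no statement at hand of whether the first base is 0 or 1. From log2(signal + 1), 1 model over 9 libraries was fitted with limma 3.58.1 (R 4.3.3, trend), for 146729 peaks with a mean of at least 10. Tests were two-sided, with Benjamini-Hochberg adjustment over all tested peaks and calls at adjusted p under 0.05. edgeR 4.0.16 and DESeq2 1.42.0 ran on the recovered reads as alternatives, with others of scaling, filter, pseudocount, window and left-out libraries.

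The genes, lists and tests were chosen with earlier results of these data known. All 40 genes are named. Library values are given for the 2 start peaks of lowest p in each role group, and for the 8 highest and 8 lowest other peaks with a mean of at least 50. The 3 genes of lowest p are named from each other list. A marker gene is not reported here. Sequences follow the rule given with them, where Tk1, Mybl2, Aurka and Cdc25b lacked 100 free bases and the window of E2f1 missed its start peak. No libraries agreed within sampling noise, so none were merged. The fit recovered 50 of 50 simulated peaks at each of log2 folds 1 and -1. Few peaks were changed in that simulation, and no start peak of these genes changed by as much. It therefore does not show how well changes of their size are found.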

Additional observations from a re-analysis of the deposited data

Results flagged for a closer look

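The hairpins differed by test (limma, log2 of hairpin #4 against #1, called at adjusted p under 0.05) at 14 start peaks. Hairpin #4 was lower at Cenpe (-0.35), Kif11 (-0.28), Cdk2 (-0.28), Top2a (-0.21), Tyms (-0.20) and Cdk4 (-0.16). It was higher at Bub1 (0.14), E2f1 (0.15), Cdc25c (0.17), Bub1b (0.19), Aurka (0.22), Pcna (0.24), Cdc25b (0.25) and Mybl2 (0.31), of which all but Cdc25c lie on chromosome 2. On that chromosome 52.0% of all start peaks were higher with hairpin #4. Among the other peaks given by library, the hairpins differed past Bub1b (-1.0), upstream of Mcm3 (-0.68), in Cenpe at 59.2 kb (-0.64), in Top2a at 29.8 kb (-0.57), in E2f3 at 22.5 kb (0.35), past Tyms (0.46) and in Aurka at 8.3 kb (1.0).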

How the results depend on the processing

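Centred on gene start peaks, start peaks numbered 15 lower and 4 higher for both hairpins, 11 lower and 3 higher for #1, and 14 lower and 3 higher for #4. Of all start peaks 20.84% fell and 20.15% rose for both hairpins. Shares for each hairpin alone are not given for this centring or for cyclic loess. With this centring peaks of the whole windows numbered 73 lower and 28 higher for both, 63 lower for #1, and 55 lower and 20 higher for #4, and 11 inside peaks were higher. Of all tested peaks 14.87% then fell and 34.98% rose for both hairpins, and of all inside peaks 14.81% and 35.95%. Cdc20 turned to 0.104. Cyclic loess gave 2 higher start peaks for both hairpins, for #1 and for #4, and 12.14% of all start peaks rose for both hairpins. The 1 higher start peak of #1 became 0 with equal totals, with centring away from gene ends, with the mean of all peaks near the start and at adjusted p under 0.01, and 2 in a fit of only the groups compared. Start peaks higher in #4 than #1 became 5 at adjusted p under 0.01 and 4 with the mean of all peaks near the start.

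With the median of each 10 Mb window removed, 24 of 39 start peak calls stayed as they were, as under the centring just given, and 4 of 14 between-hairpin calls. Then 0 start peaks and 22 window peaks were higher in #4 than #1, Mcm3 was at -0.18, Cdt1 at -0.136 and Cdc25c at 0.042, and the #4 against #1 values were -0.107 at E2f1, -0.052 at Aurka, -0.048 at Bub1, -0.017 at Cdc25c and -0.002 at Mybl2. For these counts between the hairpins no share of all peaks under the same setting is given. Gene bodies alone gave 69 lower and 6 higher peaks (#1 65 and 12, #4 64 and 5, #4 against #1 15 and 21). A window of 1 kb gave 6 higher peaks (#1 13, #4 5) and 20 lower in #4 than #1. Both count peaks of the main fit, where 26.2% of all tested peaks fell and 27.9% rose (#1 24.9% and 27.9%, #4 24.3% and 26.2%, #4 against #1 21.2% and 20.4%). Without genes of chromosome 2, 11 of 32 start peaks fell with #1, against 32.2% of all start peaks off that chromosome. Then 1 start peak, against 11.0%, and 17 window peaks were higher in #4 than #1. The last 3 settings test fewer peaks; the cause of the other changes was not tested.

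Leaving out 1 library at a time gave, for start peaks, 20 to 28 lower and 0 to 2 higher (#1 14 to 22 and 0 to 2, #4 18 to 26 and 0 to 0, #4 against #1 5 to 9 and 5 to 10). The 20 came without NTC replicate 3, where 34.39% of all start peaks fell. The 28 came without shMed4 #4 replicate 3, where 49.44% did. Of all start peaks 9.047% to 11.86% rose in these runs for both hairpins. Window peaks were 94 to 122 lower and 13 to 20 higher (#1 84 to 117 and 20 to 25, #4 85 to 108 and 9 to 13, #4 against #1 24 to 33 and 32 to 41), and inside peaks 42 to 56 and 5 to 8. Of all tested peaks 21.56% to 26.72% fell and 25.11% to 28.33% rose in these runs for both hairpins. Of all inside peaks 20.2% to 25.58% fell and 26.29% to 29.63% rose. Such shares are not given for each hairpin alone or between the hairpins. Of 26 start peaks called lower, 19 were called without any 1 library. The 16 named peaks away from starts, picked for the most extreme log2 folds of the same comparison, kept their call under every alternative run. That choice favours kept calls, so this does not bear on the peaks not named. edgeR kept all 39 start peak calls and DESeq2 38, losing Cdc6.

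Deviations from group means correlated at -0.0109 to 0.0727 over 9 pairs of libraries with the same replicate number. Over the 18 other pairs the range was -0.1033 to 0.0414. The ranges overlapped, and replicate numbers were not used in the main fit. With a replicate block 2 start peaks were higher with #1, and none of the 39 start, 16 window or 14 between-hairpin calls changed. Among all start peaks 48.28% then fell, against 44.93% without it. Depth was lowest at 44.8 M reads in shMed4 #4 replicate 3.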
